A study of Balaenoptera physalus with 6 samples.

Results

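NFE2L3, PRDX2, SIRT2 and NFKBIB are 4 genes of the oxidative stress and inflammatory response whose promoters held several CpG sites that the authors listed as more methylated in fin whale skin with a high contaminant load. Every listed site that the deposited tables assign to the promoter, an exon or an intron of these genes was taken, which gave 29 sites among the 37640 sites listed in all sequence contexts. Of these, 28 were CpG sites, 1 was a CHH site (H is any base but G) and 0 were CHG sites, out of 32682 listed CpG, 3216 listed CHH and 1742 listed CHG sites. The 4 genes were chosen by the measured methylation of these same samples, namely the direction of their promoter sites, and the sites themselves were selected on their group difference by the authors. The methylation differences below are therefore descriptions, with no test of their own.

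Methylation was read by reduced representation bisulfite sequencing (RRBS), in which genomic DNA is cut with MspI at CCGG, treated with bisulfite and sequenced, so that the share of reads still showing a cytosine gives the methylation level of a site. Skin of Balaenoptera physalus from the Mediterranean was compared between 3 samples with a high organochlorine (OC) concentration and 3 samples with a low one. Organochlorines are persistent industrial and agricultural contaminants that collect in blubber. The sources used here name neither the compounds and their amounts nor the sex and age of the whales. All high OC titles begin with BPT and all low OC titles with BPL, so whatever these prefixes mark cannot be told apart from contaminant load. Whether each sample is a different animal is not stated. Methylation of selected sites does not measure marker gene levels, so the labelled tissue and its mix of cell types were not checked, and a shift in cell types cannot be told apart from a change within cells.

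In human and mouse cells these genes have each been tied to the response to reactive oxygen or to inflammatory signals, with different functions. NFE2L3 is a CNC basic leucine zipper transcription factor related to NRF2, the main activator of antioxidant genes. PRDX2 is a peroxiredoxin that reduces hydrogen peroxide with electrons from thioredoxin. SIRT2 is a mainly cytosolic NAD-dependent deacetylase, and NFKBIB encodes IkappaB-beta, which holds NF-kappaB in the cytoplasm until it is degraded. Promoters rich in CpG are mostly unmethylated in healthy tissue, and dense promoter methylation often goes with a silent gene. RNA was not measured here.

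Of the 28 CpG sites, 27 were higher and 1 was lower in high OC skin. The same direction was found at 50.8% of all listed CpG sites and at 65.8% of the 2713 listed promoter CpG sites, and the genes were picked for it. Promoters held 25 of the 28 sites, and all 25 were higher. Both groups of samples were fully apart at 28 of 28 sites, as they were at 99.5% of all listed CpG sites, which a selection on the group difference all but fixes. The authors' deposited table classed 6 of the 28 sites as strongly different, against 13.4% of all listed CpG sites. It classed 5 of the 25 promoter sites so, against 8.18% of all listed promoter CpG sites. On the only stretch of unselected sites analysed here, 651 CpG sites at the start of another scaffold, the authors called 2.00% different and 1.23% higher in high OC skin. Unlisted CpG sites of the 4 genes were not analysed here, so neither the level of a whole promoter nor the share of its sites that differ is known.

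The 25 promoter sites formed 3 separate stretches, because SIRT2 and NFKBIB are named together at all 6 of their sites. The sites of NFE2L3 lay on scaffold NW_006725732_1, those of PRDX2 on NW_006725754_1 and those of SIRT2 and NFKBIB on NW_006726710_1. Positions are given as the start column of the deposited tables, whose assembly the sources used here do not name. All 25 promoter sites also fell in an exon or intron of a gene whose promoter they were assigned to, against 63.5% of all listed promoter CpG sites. Median coverage of the 25 sites was 32, 25 and 28 reads in high OC replicates 1 to 3 and 26, 27 and 22 reads in low OC replicates 1 to 3. The medians of all listed promoter CpG sites were lower, at 15, 13 and 15 reads in high OC and 13, 14 and 13 reads in low OC samples.

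NFE2L3 had the most listed sites of the 4 genes, 13 in its promoter, all higher in high OC skin. They spanned 561 bases, from 3450212 to 3450773, with 10 sites in an exon and 3 in an intron. Averaged over the 13 sites, methylation was 42.7%, 46.8% and 41.4% in high OC replicates 1 to 3, against 14.3%, 14.1% and 19.2% in low OC replicates 1 to 3. In this average, samples of the same group were close to each other, though not at every single site. The groups did not overlap, as they were apart at each site averaged. A selection on the group difference favours both. The group means were 43.6% ± 2.81 in high OC and 15.9% ± 2.91 in low OC samples (SD, n = 3 each), a difference of 27.7 percentage points. Exon sites averaged 44.7% ± 3.14 in high OC and 15.8% ± 1.5 in low OC samples (SD, n = 3 each). Intron sites averaged 40% ± 2.19 in high OC and 16.0% ± 11.5 in low OC samples (SD, n = 3 each), with the low OC samples spread from 5.0% in replicate 2 to 28.0% in replicate 3. The gap between groups was alike on both strands, at 28.7 points over the 6 plus-strand sites and 26.9 points over the 7 minus-strand sites.

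**Figure D1:**
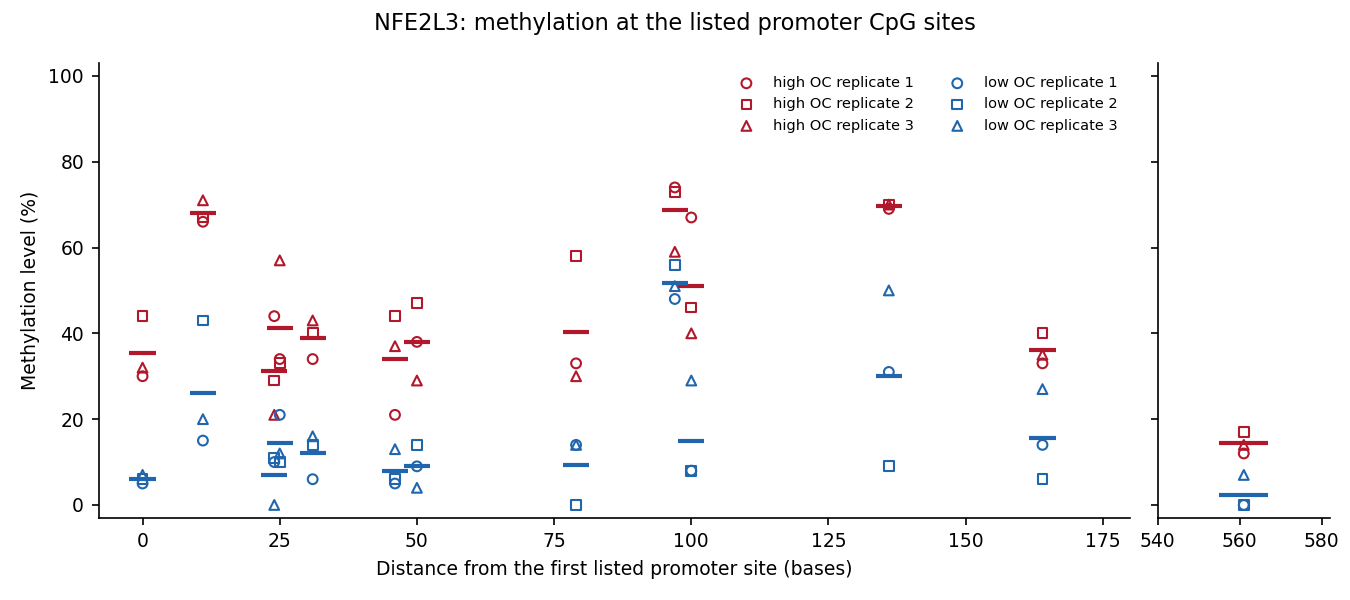
Methylation level in percent at the 13 listed promoter CpG sites of NFE2L3, by distance in bases from the first of them, with a break in the axis before the last site. Each symbol is a sample (red high OC, blue low OC) and each bar is a group mean, and the red symbols lie above the blue ones at every site, by 3 to 23 points between the nearest samples.

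Within NFE2L3 the level changed sharply from site to site while the order of the groups held. The site with the largest difference, at 3450223 on the minus strand, stood at 66%, 67% and 71% in high OC samples, against 15%, 43% and 20% in low OC samples. Its coverage was 64, 30 and 28 reads in high OC and 68, 42 and 50 reads in low OC samples. The exact 95% intervals, which cover counting error only, ran from 52.7% to 77.1% in high OC replicate 1 and from 27.7% to 59.0% in low OC replicate 2, so the nearest samples overlapped in counting error. The site with the smallest difference, at 3450773 on the minus strand and in the intron, had 12%, 17% and 14% in high OC samples, against 0%, 0% and 7% in low OC samples. There, 1, 2 and 1 methylated reads out of 8, 12 and 7 stood against 0, 0 and 1 out of 10, 10 and 14. A count of 0 in 10 reads allows a level of up to 30.0%, so the difference at this site was not detectable at this depth in any single sample.

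A single NFE2L3 site was over 50% methylated on average in low OC samples. At 3450309 on the plus strand, high OC samples were at 74%, 73% and 59%, and low OC samples were also near the middle of the scale, at 48%, 56% and 51%. Only 3 bases further on the same strand, at 3450312, high OC samples had 67%, 46% and 40%, against 8%, 8% and 29% in low OC samples, at 6 to 14 reads. At 10 of the 13 sites the low OC mean was under 20%, and at the 8 sites besides 3450223, 3450309, 3450312, 3450348 and 3450773 levels ran from 21% to 58% in high OC and from 0% to 27% in low OC samples. The gap between the nearest samples was widest, at 23 points, at both 3450223 and 3450212. Site 3450212 had 30%, 44% and 32% in high OC samples, against 5%, 6% and 7% in low OC samples. At 3450348, in the intron, the high OC samples were within a point of each other (69%, 70% and 70%), and the low OC samples were far apart (31%, 9% and 50%). Low OC replicate 3 was the highest of its group at 8 of the 13 sites, ties included. High OC replicate 1 was the lowest of its group at 7 of the 13 sites.

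Both cytosines of a single CpG were listed at 3450236 and 3450237. The plus strand averaged 31.3% ± 11.7 in high OC and 7.0% ± 6.08 in low OC samples (SD, n = 3 each). The minus strand averaged 41.3% ± 13.6 in high OC and 14.3% ± 5.86 in low OC samples (SD, n = 3 each). The group differences were 24.3 points on the plus strand and 27.0 points on the minus strand, closer to each other than the spread between samples.

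**Figure D2:**
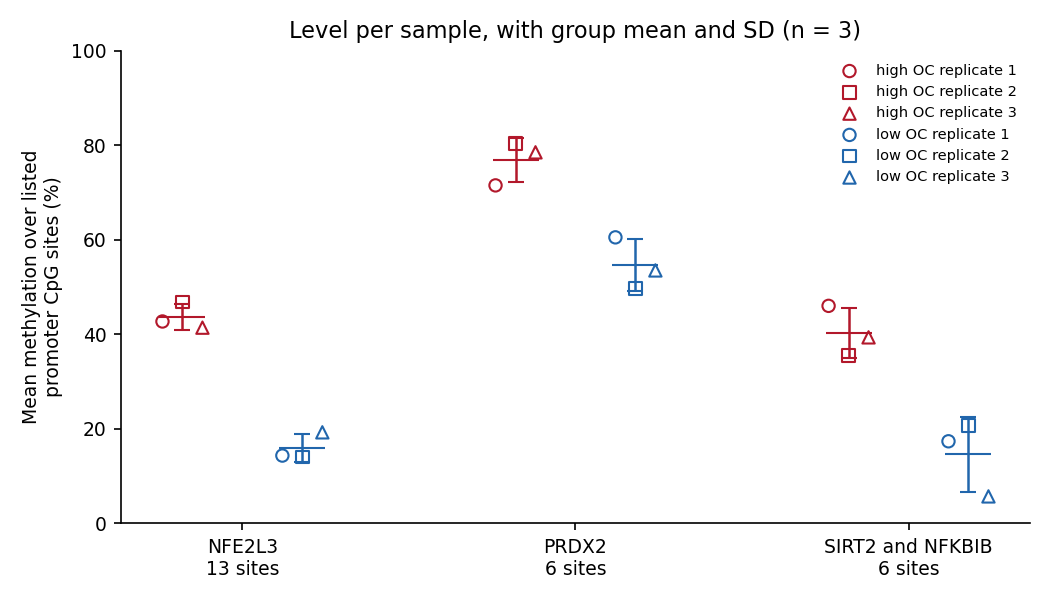
Mean methylation over the listed promoter CpG sites in percent, for NFE2L3, PRDX2 and the stretch shared by SIRT2 and NFKBIB, with high OC samples in red and low OC samples in blue. Symbols are samples and bars are group means with SD (n = 3). The groups are apart in all 3 stretches, as they are at each site averaged, with PRDX2 at the highest level in both groups.

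The listed sites of PRDX2 were mostly methylated in both groups, unlike those of NFE2L3. The 6 sites, from 6818217 to 6818288, lay in an intron of PRDX2 and within the promoters of both PRDX2 and RNASEH2A, the gene of the catalytic subunit of ribonuclease H2, which removes ribonucleotides from DNA. RefSeq's gene table for the fin whale (assembly mBalPhy2.hap1.1), used here for gene order alone, places PRDX2 and RNASEH2A 2 steps apart among protein-coding genes. RNASEH2A had no listed CpG site beyond these 6. Averaged over the sites, high OC samples had 71.5%, 80.3% and 78.5%, against 60.5%, 49.7% and 53.5% in low OC samples. The group means were 76.8% ± 4.66 in high OC and 54.6% ± 5.49 in low OC samples (SD, n = 3 each), a difference of 22.2 points. The high OC mean was over 50% at 6 of 6 sites, and the low OC mean was over 50% at 4 of 6.

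The PRDX2 site with the largest difference, at 6818242 on the plus strand, had 35%, 58% and 62% in high OC samples, against 29%, 18% and 9% in low OC samples. It rested on 20, 12 and 8 reads in high OC and 14, 17 and 11 reads in low OC samples. The nearest samples, high OC replicate 1 and low OC replicate 1, were 6 points apart, and their exact 95% intervals of 15.4% to 59.2% and 8.39% to 58.1% nearly coincided. At the site with the smallest difference, 6818237 on the same strand and 5 bases away, high OC samples had 77%, 88% and 81%, against 73%, 71% and 71% in low OC samples. Both strands of the CpG at 6818232 and 6818233 were listed, with differences of 17.3 points on the plus strand and 20 points on the minus strand. On the plus strand the means were 86.7% ± 2.31 in high OC and 69.3% ± 6.11 in low OC samples (SD, n = 3 each). The minus strand was less methylated in both groups, at 71.7% ± 4.04 in high OC and 51.7% ± 11.1 in low OC samples (SD, n = 3 each). At the outermost sites the groups were apart as well, as at every listed site of these genes. Levels at 6818217 were 87%, 88% and 94% in high OC samples, against 67%, 64% and 76% in low OC samples, and at 6818288 they were 70%, 92% and 75% in high OC samples, against 64%, 41% and 36% in low OC samples. High OC replicate 1 was the lowest of its group at 5 of the 6 PRDX2 sites.

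**Figure D3:**
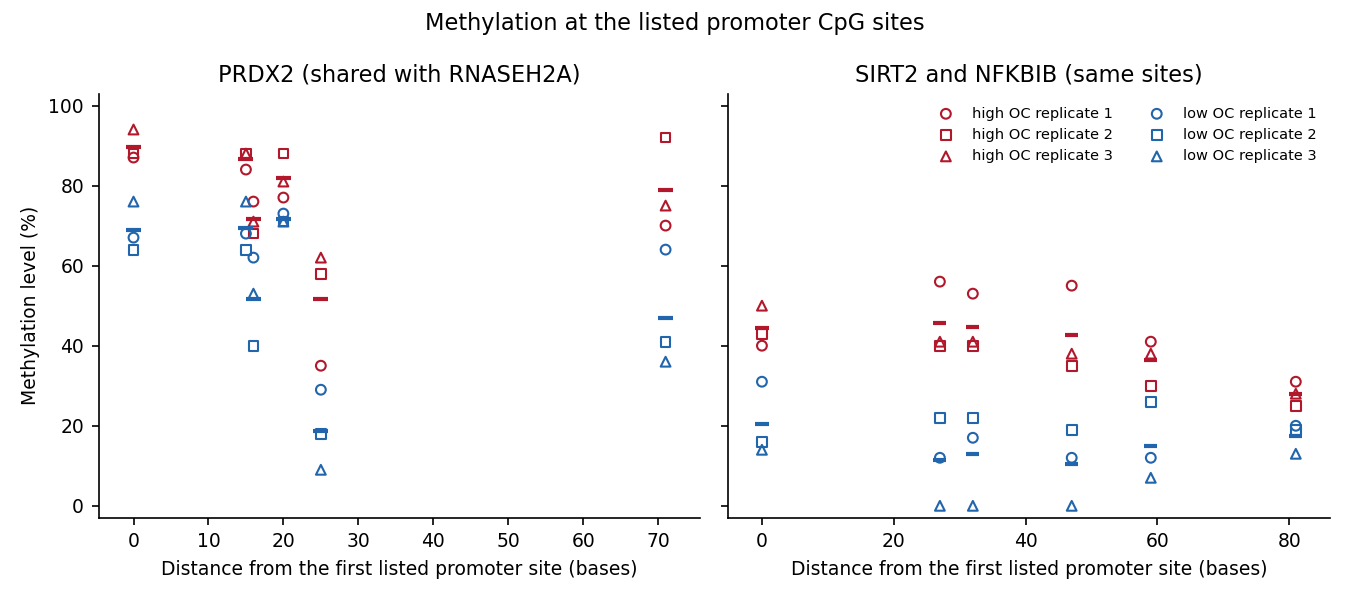
Methylation level in percent at the 6 listed promoter CpG sites of PRDX2 (left) and the 6 sites shared by SIRT2 and NFKBIB (right), by distance in bases from the first site of each. Symbols are samples and bars are group means (red high OC, blue low OC), and low OC replicate 3 is the lowest sample at all 6 sites on the right.

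SIRT2 and NFKBIB shared their promoter sites, so their promoter values are the same measurements counted for both genes. They are direct neighbours among the protein-coding genes of RefSeq's fin whale table. The 6 sites spanned 81 bases, from 925795 to 925876, and 4 of them lay in an exon and 2 in an intron of NFKBIB, none in an exon or intron of SIRT2. Averaged over the sites, high OC samples had 46.0%, 35.5% and 39.3%, against 17.3%, 20.7% and 5.67% in low OC samples. The group means were 40.3% ± 5.31 in high OC and 14.6% ± 7.88 in low OC samples (SD, n = 3 each), a difference of 25.7 points. Low OC replicate 3 was the lowest sample at 6 of 6 sites and also had the fewest reads there on average, and without it the difference was 21.3 points. Its coverage averaged 17.2 reads over the 6 sites, against 29.2 and 31.2 reads in low OC replicates 1 and 2.

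The largest difference on the shared stretch was at 925822 on the minus strand, with 56%, 40% and 41% in high OC samples, against 12%, 22% and 0% in low OC samples. The 0% of low OC replicate 3 stood for 0 of 15 reads, which allows a level of up to 20%. At the site with the smallest difference, 925876 on the minus strand, high OC samples had 31%, 25% and 28%, against 20%, 19% and 13% in low OC samples. Along the 5 minus-strand sites the difference was 34.3 points at 925822, 31.7 at 925827 and 32.3 at 925842, and narrower at the far end, with 21.3 points at 925854 and 10.7 at 925876. The single plus-strand site, 925795, had 40%, 43% and 50% in high OC samples, against 31%, 16% and 14% in low OC samples.

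Outside the shared stretch, NFKBIB had 2 listed CpG sites that went opposite ways. At 919279, in an exon, high OC samples had 91%, 60% and 92%, against 33%, 45% and 50% in low OC samples, a difference of 38.3 points. Of the 28 sites, only the NFE2L3 sites 3450223 and 3450348, at 42.0 and 39.7 points, differed by more. The value of low OC replicate 1 rested on 6 reads, with an exact 95% interval from 4.33% to 77.7%. At 918541, in an intron, high OC samples had 83%, 78% and 70%, against 100%, 100% and 93% in low OC samples, the single lower site of the 28. Its coverage was 6 to 14 reads, and the intervals of all 6 samples overlapped. SIRT2 had 1 listed site away from the shared stretch, at 930747 in an intron, which was fully methylated in all high OC samples (9 of 9, 8 of 8 and 15 of 15 reads). Low OC samples stood at 82%, 88% and 88% there, with 9 of 11, 7 of 8 and 15 of 17 reads methylated. The exact 95% intervals of all 6 samples overlapped at this site too.

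NFKBIB also held the single listed site outside CpG context. At 919411, a CHH cytosine in an intron, high OC samples had 17%, 10% and 12%, against 0% in each low OC sample. Each high OC level stood for 1 methylated read, out of 6, 10 and 8 reads. The low OC samples had 0 of 6, 0 of 8 and 0 of 7 reads, which allow levels of up to 50%, 37.5% and 42.9%. Summed over the samples of each group, 3 of 24 reads (12.5%, exact 95% interval 2.66% to 32.4%) stood against 0 of 21 reads, which allows up to 14.3%. These sums cover counting error only and leave out the spread between samples. No difference was detectable in them at this depth. Of all listed CHH sites, 50.2% were higher in high OC skin. Of the 662 CHH sites on the unselected stretch, the authors' call marked 0.00% as different, which allows a share of up to 0.453%.

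Neighbouring sites of these genes often shared their coverages, so their levels are not independent readings. At the NFE2L3 sites 3450223, 3450237 and 3450243 the coverages were identical in all 6 samples and exactly 2 times those at 3450262, which had 32, 15 and 14 reads in high OC and 34, 21 and 25 in low OC samples. PRDX2 coverage at 6818232 was 62, 50 and 32 reads in high OC and 44, 28 and 34 in low OC samples, exactly 2 times that at 6818237. The SIRT2 and NFKBIB site at 925842 likewise had close to 2 times the reads of its neighbours. All 6 coverages were even at 6 of the 25 promoter sites, against 9.33% of all listed promoter CpG sites. At those 6 sites, 1 of the 36 methylated read counts was odd. Further sites had close to 2 times a neighbour's coverage without being even in every sample, such as 3450236 against 3450212 and 6818217 against 6818237. The count of even sites therefore leaves out some doubled ones. When sites on a strand whose coverages were equal or in a ratio of 2, within 2 reads in every sample, were joined, the 25 promoter sites made 12 sets. NFE2L3 had 7 of these, PRDX2 3 and the stretch of SIRT2 and NFKBIB 2. With 1 value per set the differences were 25.1 points for NFE2L3, 22.9 for PRDX2 and 25 for SIRT2 and NFKBIB. If the doubled reads at 3450223 are counted once, the exact 95% interval of high OC replicate 1 widens to 46.8% to 81.4%, and that of low OC replicate 2 to 21.8% to 66.0%. At 0 of the 25 promoter sites did the intervals of all high OC samples lie above those of all low OC samples. So at no site was every high OC sample apart from every low OC sample beyond these intervals. This strict rule compares single samples and does not test the difference between groups. Why coverages were doubled at some sites was not tested.

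**Figure D4:**
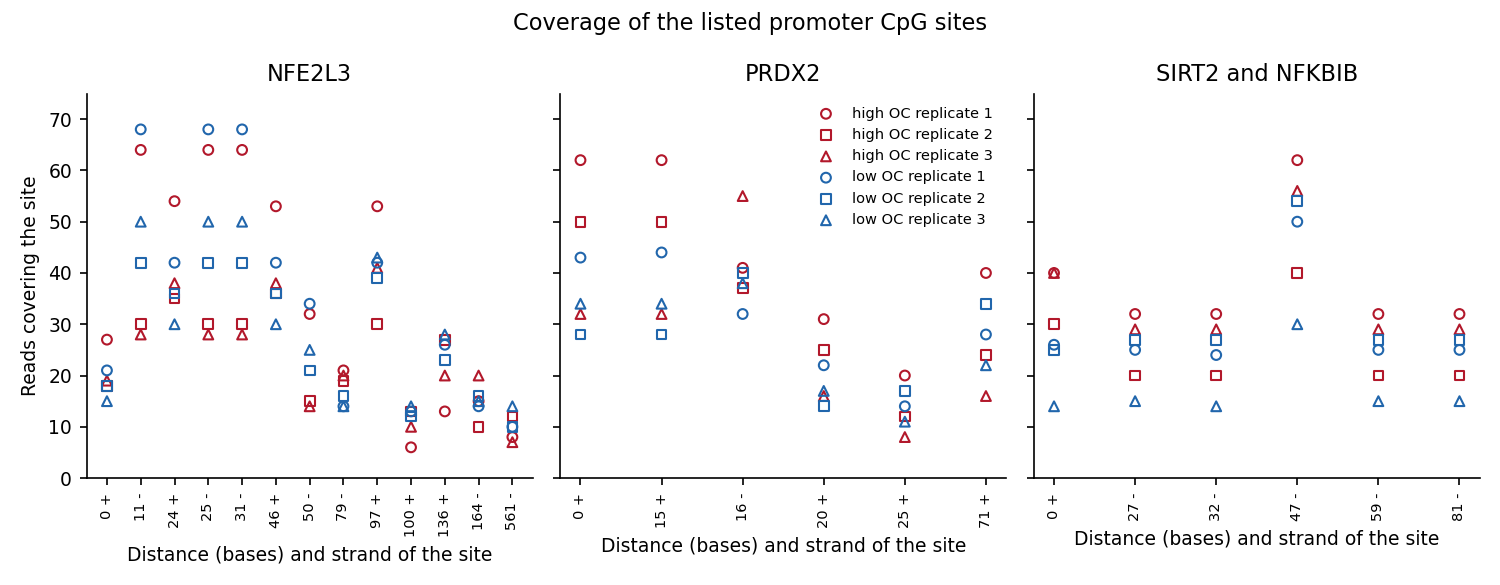
Reads covering each listed promoter CpG site of NFE2L3, PRDX2 and the stretch shared by SIRT2 and NFKBIB, by distance in bases from the first site and strand, with high OC samples in red and low OC samples in blue. Sites at 11, 25 and 31 bases in NFE2L3 have the same coverages, at 2 times those of the site at 50 bases, and the site at 47 bases on the right stands at about 2 times its neighbours.

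Beyond a minimum of 5 reads, coverage was not used to choose the sites, and it could be tested. Mean coverage of the NFE2L3 sites was 27.9 ± 7.38 reads in high OC and 30.6 ± 4.39 reads in low OC samples (SD, n = 3 each; exact two-sided permutation p = 0.6). For PRDX2 it was 34.1 ± 8.13 reads in high OC and 27.8 ± 2.39 in low OC samples (SD, n = 3 each; exact two-sided permutation p = 0.3). For SIRT2 and NFKBIB it was 32.9 ± 6.99 reads in high OC and 25.8 ± 7.57 in low OC samples (SD, n = 3 each; exact two-sided permutation p = 0.4). Adjusted over the 3 stretches by Benjamini-Hochberg each exact permutation p was 0.6, and 3 samples against 3 cannot go below 0.1. The differences in depth were within the spread between samples in these tests, which does not show that depth was equal.

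Set against other promoters, NFE2L3 was near the top by its number of listed sites. Of 1820 genes with a listed promoter CpG site, 71.9% had a single one, and 5 names had more than the 13 of NFE2L3, some of them transfer RNA names that stand for many copies. LRRC55, with 14 sites, was the only other promoter with 12 to 14 listed sites, and it went the other way, at 55% ± 6.37 in high OC and 86.4% ± 5.77 in low OC samples (SD, n = 3 each). Promoters with only higher sites were common, however. With transfer RNA names left out, 36 promoters had at least 6 listed sites, and 27 of these, the 4 genes included, had only higher ones. OTX1, with 18 sites, and LOC103010225, with 17, were among them. PRDX2, SIRT2 and NFKBIB, with 6 sites each, shared their rank in number of sites with other genes, behind 21 promoters with more. The median difference over the 25 sites was 27.0 points, with a range from 10.3 to 42.0 points. Over the 1784 higher sites among all listed promoter CpG sites, the median was 17.0 points, with quartiles at 12.3 and 24.3 points. Sites shared by the promoters of several genes made up 12 of the 25, against 4.72% of all listed promoter CpG sites. At the authors' limit for a strong difference, the nearest promoter sites inside it differed by 0.34 (925822 and 6818242) and the nearest outside it by 0.32 (925827, 925842 and 6818288), in the authors' deposited table. The lowest listed differences among the sites were 0.11, at 6818237 and 925876, just inside the smallest difference of 0.1 in the list.

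**Figure D5:**
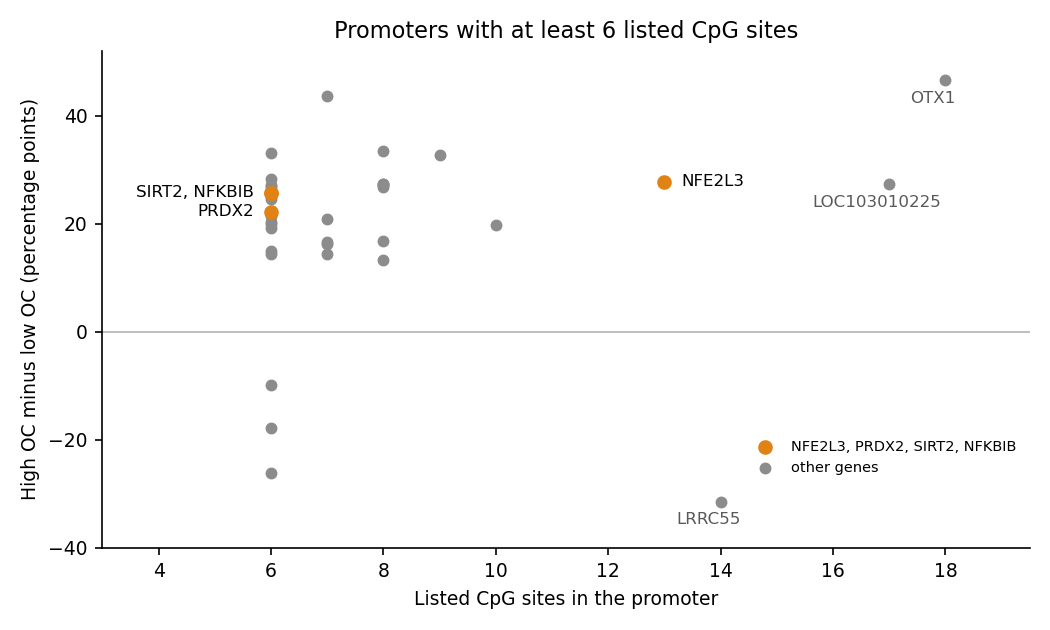
Difference in mean methylation, high OC minus low OC in percentage points, against the number of listed CpG sites, for every promoter with at least 6 listed sites, transfer RNA names left out. Each point is a gene, the 4 genes described here are orange and lie between 22.2 and 27.7 points, and other genes with 6 sites lie on both sides of 0.

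The nearest other listed CpG site to those of NFE2L3 was 180675 bases away. Near SIRT2 and NFKBIB, 2 sites that fell in both the promoter and an exon of CCER2, 2859 and 2908 bases from the NFKBIB intron site 918541, were higher in high OC skin by 21.3 and 13 points. Near PRDX2 a single site with no gene name, 7872 bases away, was lower by 13.3 points. On the rest of each scaffold, with the sites of the 4 genes left out, 16 of 28 listed CpG sites were higher on that of NFE2L3, 78 of 122 on that of PRDX2 and 51 of 83 on that of SIRT2 and NFKBIB.

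Other listed genes of the same pathways lay on both sides. A gene was counted by whether more of its listed CpG sites were higher or lower, and of all 6197 listed genes 49.6% had more sites higher than lower. By promoter sites alone the share was 59.2% of 1820 genes. What share of all annotated genes had a listed site is not given here. The numbers of listed genes below therefore do not show whether a pathway was listed more often than other genes. Among 16 genes of the CNC factors, their MAF partners and the NRF2 degradation machinery, 7 were listed, 3 with more higher sites, 2 with more lower sites and 2 equal. Promoter sites were listed for 4 of them, higher in NFE2L3 and lower in MAFG and MAFK, small MAF partners of the CNC factors, and in RBX1, a ubiquitin ligase subunit. KEAP1, which marks NRF2 for degradation, had 2 exon sites at 99.0% ± 1.73 in high OC and 83.3% ± 3.51 in low OC samples (SD, n = 3 each). The KEAP1 sites had only 6 to 17 reads. NFE2L1 had 1 higher and 3 lower sites, and BACH2, a repressor of the same DNA elements, 1 and 1.

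Of 33 peroxiredoxin, thioredoxin and antioxidant enzyme genes, 7 were listed, 4 with higher and 3 with lower sites. No peroxiredoxin other than PRDX2 was among them. The thioredoxin system was split, with TXN2 and TXNRD1 lower and TXNRD2 higher at 1 site each. TXNRD1, thioredoxin reductase, stood at 70.0% ± 13 in high OC and 96.7% ± 5.77 in low OC samples at its exon site (SD, n = 3 each), at 9 to 14 reads. HMOX1, haem oxygenase and a classical NRF2 target, had 1 promoter site with 18%, 10% and 9% in high OC samples, against 0% in each low OC sample, at 20 to 46 reads. A count of 0 at the lowest coverage of any sample, 20 reads, would allow up to 15.0%. That level lies within the range of the high OC samples, and which sample had 20 reads is not given here. GCLC, the catalytic subunit of the enzyme that starts glutathione synthesis, had 2 higher intron sites, and SOD3, extracellular superoxide dismutase, had 2 lower sites, 1 of them in its promoter.

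Of the 7 sirtuins, SIRT2 and SIRT6 were listed. SIRT6, a chromatin deacetylase, had 1 intron site, lower, at 57.0% ± 2.65 in high OC and 80.7% ± 5.13 in low OC samples (SD, n = 3 each). The SIRT6 site had 11 to 26 reads. Of 36 NF-kappaB pathway genes 14 were listed, 8 with more higher sites, 4 with more lower sites and 2 equal. With sites of at least 10 reads in every sample alone, 3 of these genes had more higher sites and 4 more lower sites. TRAF3, an adaptor that restrains noncanonical NF-kappaB signalling, had 7 lower sites, at 77.3% ± 2.21 in high OC and 97.0% ± 3.61 in low OC samples (SD, n = 3 each). The TRAF3 sites had 5 to 30 reads. TNFAIP3, the A20 inhibitor of NF-kappaB, had 2 higher intron sites, at 81.0% ± 3.50 in high OC and 56.3% ± 2.93 in low OC samples (SD, n = 3 each). The TNFAIP3 sites had 8 to 21 reads. Among promoters of the list besides NFKBIB, TBK1 was higher at 1 site by 10 points. TBK1 had 0% in each low OC sample, at 6 to 30 reads over all samples. MYD88 was lower at 1 site by 10.7 points, with 0% in each high OC sample, at 11 to 23 reads over all samples. A count of 0 at the lowest of these coverages would allow up to 50% in TBK1 and 27.3% in MYD88. RELB, NFKBID, MAP3K14, TAB1 and TRAF2 had more higher sites, BCL3 and TNFRSF1A more lower sites, and IKBKB and IKBKE equal numbers.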

How the data were processed

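Skin DNA of 6 fin whale samples was cut with MspI, converted with bisulfite and read by Illumina HiSeq sequencing, as the labels' protocols say. The submitters' processing notes name Bismark. Its version, the assembly, the gene annotation and the width of a promoter are not named in those sources. The authors deposited for each site a methylation level as a fraction with 2 decimals and a read count as its coverage, per the file headers. They also deposited the difference of group means, high OC minus low OC, with its p-value and class.

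Listed sites had a difference of at least 0.1, a p-value of at most 0.05 and at least 5 reads in each sample in the deposited tables. Levels were averaged over the sites of a gene in each sample, in percent (replicates are numbered in accession order), and groups are given as mean ± SD of 3 samples. A site's methylated reads are its coverage multiplied by its level and rounded. Intervals are exact (Clopper-Pearson) at 95%, floors for a count of 0 are 3 reads of the total, and both cover counting error only, since the sources used here name no molecular identifiers. The p-values of the permutation tests measure only the spread between these samples, which may be technical.

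The genes, the 4 gene lists and the sites printed singly (the largest and smallest promoter difference of each gene, and all sites where a gene had at most 5 outside its promoter) were chosen with earlier results of these data known, and further sites were named after their values were seen. All 4 symbols, and 82.0% of the names at listed CpG sites, matched RefSeq's table for mBalPhy2.hap1.1. LRRC55 is named as the promoter within 1 listed site of the number in NFE2L3. No sequence is printed. Code was tested on simulated data. Python 3.11.15, numpy 2.4.6, scipy 1.17.1, pandas 2.3.3 and matplotlib 3.10.9 were used.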

Additional observations from a re-analysis of the deposited data

How the results depend on the processing

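The level differences of the 4 genes were recomputed with at least 10 or 20 reads in every sample, weighting by coverage, a median over sites, 1 value per CpG, 1 site per 10 bases, without sites of only even coverage, with each sample left out, and, chosen after seeing the data, with 1 value per set of matched coverage. Of 136 such values 134 moved by less than the spread between samples and 0 turned direction. The exceptions were the NFKBIB intron sites, 12.6 points with all 3 sites. They stood at 29.2 points with at least 10 reads, since the minimum removes the lower site, and at 27.3 points as a median over all 3 sites. The groups were apart at every site, so sets made up of higher sites alone could not turn direction in any setting. Some of the 136 values are repeats, since SIRT2 and NFKBIB share promoter sites and the PRDX2 promoter sites are also its intron sites. Leaving out sites of only even coverage still kept some sites of doubled coverage. Leaving out 1 sample gave 26.2 to 29.4 points for NFE2L3 promoter sites (exon 27.2 to 30.3, intron 18.5 to 30.0), 19.8 to 25.2 for PRDX2, 21.3 to 28.8 for SIRT2 and NFKBIB promoter sites, 12 to 15.0 for the SIRT2 intron, 23.0 to 31.1 for NFKBIB exons and 8.83 to 14.8 for its introns. Coverage differences kept their sign, from -6.90 to -0.167 reads for NFE2L3, 1.97 to 10.1 for PRDX2 and 2.72 to 11.0 for SIRT2 and NFKBIB. The lowest exact permutation p was 0.1, for PRDX2 without high OC replicate 3. That is the lowest value the test can reach with a sample left out. The high OC samples left there all lay above the low OC samples in mean coverage.

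The counts of pathway genes were small and moved. With at least 10 reads, 1 CNC and NRF2 gene had more higher and 1 more lower sites, 2 antioxidant genes had more higher and 1 more lower sites, and 3 NF-kappaB genes had more higher and 4 more lower sites, the reverse of the balance of 8 to 4 with all sites. At a difference of at least 0.2 the counts were 1 and 1 for the CNC and NRF2 list, 2 higher and 2 lower for the antioxidant list, and 4 higher and 3 lower for the NF-kappaB list. No paired analysis was possible because the labels give no replicate numbers that the groups share. Since the authors listed the sites from all 6 samples, ranges with a sample left out do not show that the sites would be listed again. Coverage of 6 to 68 reads a site limits the precision of a single level.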
